A study of Equus caballus with 31 samples.

Results

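A set of 10 genes that mark dendritic cells or their maturation were followed in horses with osteoarthritis (OA) and in healthy horses. They were taken by symbol: XCR1, CLEC9A, BATF3, IRF8, CLNK and CADM1 as type 1 dendritic genes, FLT3 and ZBTB46 as general dendritic genes, and LAMP3 and CD83 as maturation genes. All 10 were found in both tables, among 16799 symbols that the tables share. Cells of the synovial fluid and peripheral blood mononuclear cells (PBMC) were the sources of the sequenced RNA. Fluid came from 5 OA horses and 11 healthy horses, and PBMC from 6 OA horses and 9 healthy horses. Of the 18 horses, 13 gave both samples, 5 of them with OA. Every horse is labelled wild type, OA was naturally occurring, and horses with recent medication or joint injection had been left out. The labels give no age, sex or batch, and each sample is 1 horse. The values are read counts divided by a size factor per library and are called normalized counts below.

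Dendritic cells take up antigen and present it to T cells. The type 1 subset depends on the transcription factors IRF8 and BATF3, carries the receptors XCR1 and CLEC9A, and is known for presenting material from dead cells to cytotoxic T cells, whereas LAMP3 and CD83 appear as dendritic cells of any subset mature. Most of the genes are not exclusive to dendritic cells: IRF8 is also known in B cells and monocytes, CADM1 in fibroblasts and epithelium, CLNK in mast cells, and CD83 in activated lymphocytes. In RNA from a mixture of cells, fewer cells of a type and less RNA per cell cannot be told apart.

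Depth ranged from 25.9 to 36.3 M reads for fluid libraries and from 23.9 to 34.8 M for PBMC libraries. In PBMC the OA libraries were deeper, at 31.7 to 34.8 M against 23.9 to 32.2 M (two-sided exact permutation p = 0.0003996), and the part of depth in the PBMC results was not tested. Horse OA_1038 stood apart from the other OA horses. Among OA horses its fluid had the highest XCR1, CLEC9A, CLNK and IRF8, the lowest summed monocyte and macrophage markers and the highest summed T cell markers, and its PBMC had the lowest XCR1, CLEC9A, BATF3, IRF8 and FLT3. Where its removal changed a call of one of the 10 genes, the values with and without it are given. Leaving it out was decided after its values had been seen.

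In fluid, 1 of the 10 genes passed the test between OA and healthy horses (adjusted p under 0.05 over all genes tested), and it was lower in OA, where 28.1% of the 13885 genes tested passed in either direction and 13.6% were lower. That gene was CLNK, an adaptor protein of immune receptor signalling (EquCab3.0 chr3:113600329-113751622). Its normalized count in the 5 OA fluids was 6.28, 91.4, 93.2, 103 and 636, against a lowest value of 141, a median of 499.6 and a highest value of 773 in the 11 healthy fluids. Below every healthy horse lay 4 of 5 OA horses, and the remaining one, horse OA_1038, lay within the upper part of the healthy range, so the groups overlapped. The mean was 186 ± 254 (SD, n = 5) in OA and 473 ± 217 (SD, n = 11) in healthy fluid. The log2 change was -2.30 (SE 0.71, 95% interval -3.78 to -0.81, adjusted p = 0.0239, limma), and -3.03 (adjusted p = 0.00421) without horse OA_1038. The call was lost without OA horse OA_2615, which had the value of 6.28 from 5 reads (-1.41, adjusted p = 0.0725). It was also lost in edgeR's quasi-likelihood test (-1.48, adjusted p = 0.107) and in DESeq2's test (-1.35, adjusted p = 0.0746), which called 28.7% and 33.6% of all genes and 0 of the 10. In each, 2 of the 10 had an unadjusted p under 0.05, beside 5735 (edgeR) and 6004 (DESeq2) of the 13885 genes.

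XCR1, the chemokine receptor that brings type 1 dendritic cells to XCL1-secreting lymphocytes (chr16:42219787-42220789), had 30.2, 64.2, 159.9, 214 and 793 normalized counts in OA fluid. Healthy fluid ranged from 118 to 1461 with a median of 584. There were 2 OA horses below every healthy horse, and 4 of 5 were below the healthy median, with horse OA_1038 the exception. The log2 change was -1.82 (SE 0.73, 95% interval -3.35 to -0.29) and missed the threshold (adjusted p = 0.0685). It passed without horse OA_1038 (-2.45, adjusted p = 0.0223, where 12.6% of all genes were lower), without healthy horse ORC_188 (-1.99, adjusted p = 0.0485, with 13.3% lower) and without healthy horse ORC_205 (-2.03, adjusted p = 0.0388, with 14.1% lower). It also passed with weights per library (-2.21, adjusted p = 0.00547) and with libraries scaled to equal totals (-2.02, adjusted p = 0.0444), where 21.5% and 19.9% of all genes were lower. Without horse OA_2615 the change was -1.28 (adjusted p = 0.223), the smallest with 1 library left out.

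CLEC9A, a receptor for filaments exposed by dead cells (chr6:38166559-38181416), had few reads in fluid. OA fluid gave 0, 0, 16.9, 54.8 and 109.6 normalized counts, and healthy fluid 0 to 412 with a median of 92.7. It had no read in 4 fluids, those of OA horses OA_2615 and OA_9350 and of healthy horses ORC_197 and ORC_205, and a count of 0 allows up to 3.77 normalized counts in these libraries (3 reads, counting error only). Libraries at 0 occurred in both groups, and the highest OA value, that of horse OA_1038, was within the healthy range. The log2 change of -2.25 had a wide error (SE 1.5, 95% interval -5.40 to 0.90, adjusted p = 0.266). It was -3.10 without horse OA_1038 (adjusted p = 0.155) and -1.41 without horse OA_2615 (adjusted p = 0.550) or OA_9350 (adjusted p = 0.542).

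**Figure D1:**
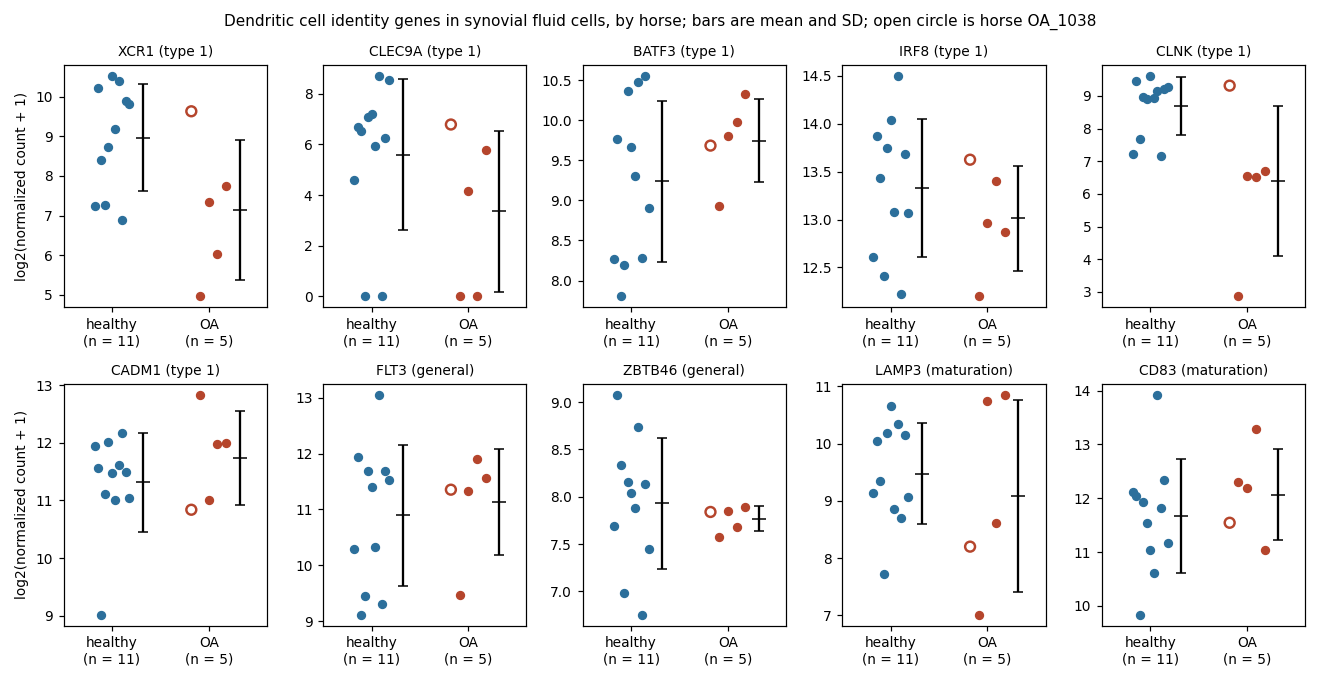
Normalized counts of the 10 genes in synovial fluid cells on a log2(value + 1) axis, 1 point per horse, with the mean and SD of each group beside the points and horse OA_1038 as an open circle. In the CLNK panel 4 of 5 OA horses lie below all 11 healthy horses, and in the ZBTB46 panel the 5 OA horses lie close together between 189.7 and 236 normalized counts.

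The 3 remaining type 1 genes missed the threshold in fluid. BATF3 and IRF8 are the factors that set up and keep the type 1 subset, and CADM1 is an adhesion molecule on its surface. BATF3 (chr5:23242809-23254504) had 485, 822, 894, 1005 and 1285 normalized counts in OA fluid against 222 to 1496 (median 634) in healthy fluid, and 4 of 5 OA horses were above the healthy median. Its log2 change was 0.51 (SE 0.44, adjusted p = 0.399). IRF8 (chr3:33540584-33582842) had 4702, 7472, 8013, 10810.2 and 12627 in OA against 4772 to 23061 (median 11031) in healthy horses. Below the healthy median were 4 of 5 OA horses, but only 1 was below the lowest healthy horse, and the log2 change was -0.32 (SE 0.33, adjusted p = 0.487).

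CADM1 (chr7:23883071-24200754) had 1831, 2061, 4021, 4092 and 7315 normalized counts in OA fluid, against 517 to 4636 (median 2895) in healthy fluid. The highest value was that of horse OA_2615, above every healthy horse, and the fluid of the same horse had the lowest XCR1, CLNK and IRF8 of the OA group. The log2 change of CADM1 was 0.41 (SE 0.42, adjusted p = 0.473). The 9 measured synovial fibroblast markers summed to 643902 normalized counts in the fluid of horse OA_2615, the highest of all fluids, against 1365 to 643902 over the OA group and 773 to 128701 over the healthy group. Of the 9, 3 were higher in OA by limma, 8 by edgeR and 9 by DESeq2, and none was at 0 in every fluid. Their part in the CADM1 values was not tested.

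FLT3, the receptor for the growth factor on which dendritic cells depend (chr17:7769477-7848207), had 711, 2587, 2617, 3038 and 3852 normalized counts in OA fluid. Healthy fluid ranged from 554 to 8494 with a median of 2706. The other 4 OA horses lay close together whereas horse OA_2615 lay far below them, still inside the healthy range. The log2 change was 0.24 (SE 0.59, 95% interval -0.998 to 1.47, adjusted p = 0.784). ZBTB46, a transcription factor of classical dendritic cells (chr22:50467261-50510369), had 189.7, 204, 228, 229.8 and 236 in OA fluid against 107 to 539 (median 262) in healthy fluid. All 5 OA values were below the healthy median and above the healthy minimum, with a coefficient of variation of 9.07% against 47.2% in healthy fluid, and the log2 change was -0.16 (SE 0.33, adjusted p = 0.729).

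The maturation genes had no common direction in fluid. LAMP3, a lysosomal membrane protein of mature dendritic cells (chr19:23946430-23980703), had 128, 293, 389, 1709 and 1847 normalized counts in OA fluid against 211 to 1615 (median 646) in healthy fluid. Horses OA_3850 and OA_9570 were above every healthy horse and horse OA_2615 was below every one, so the OA values spread to both sides of the healthy group. The log2 change was -0.39 (SE 0.57, 95% interval -1.59 to 0.81, adjusted p = 0.628), and its sign turned without horse OA_2615 (0.13) and with edgeR (0.02), DESeq2 (0.08) and weights per library (0.26). CD83, a surface glycoprotein that stabilises antigen presentation molecules (chr20:14178721-14199578), had 2099.7, 2986, 4651, 5047 and 9943 in OA against 914 to 15522 (median 3625) in healthy fluid. All OA values were inside the healthy range, and the log2 change was 0.40 (SE 0.49, adjusted p = 0.560).

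By role, the median log2 change in fluid was -1.07 over the 6 type 1 genes, 4 of them negative, 0.04 over the general pair and 0.004 over the maturation pair, beside 0.08 over all genes tested. With libraries scaled to equal totals that last value was -0.12, and 32% of the called genes were then higher in OA in place of 51.4%. Other cell types also differed between the fluids. Of 10 T cell markers, 9 were lower in OA, with summed levels of 7042 to 30076 in OA and 32105 to 113119 in healthy fluid, and 7 of 9 NK and cytotoxic markers were lower, at 4484 to 15835 against 13667 to 72396. Of 8 monocyte and macrophage markers, 2 were higher, with overlapping sums of 31288 to 231240 against 9780 to 179581. Over all genes tested in fluid, 13.6% were lower and 2006 of 13885 were higher. No marker of these 3 lists was at 0 in every fluid, and their part in the CLNK and XCR1 values was not tested.

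In PBMC none of the 10 genes passed the test with limma, where 5.4% of 13072 genes passed, although 3 of the 10 had an unadjusted p under 0.05. These were CADM1, CLNK and FLT3, at ranks 846, 1175 and 2093 by p among the 13072 genes. All 6 type 1 genes had a positive log2 change, with a median of 0.62 against 0.02 over all genes tested, although that of IRF8 turned negative without OA_2615 or without OA_3850. CADM1 had a lowest value of 509, a median of 1036 and a highest value of 1391 normalized counts in OA against 399, 480.4 and 817 in healthy PBMC. Every OA horse was above the healthy median and 4 of 6 were above every healthy horse, while horses OA_1038 and OA_4110 were inside the healthy range. The log2 change of CADM1 was 0.77 (SE 0.23, 95% interval 0.29 to 1.26, adjusted p = 0.0592), and it passed without horse OA_1038 (0.93, adjusted p = 0.0196), without horse OA_4110 (0.89, adjusted p = 0.0360, where 3.97% of all genes were higher) or without healthy horse ORC_202 (0.85, adjusted p = 0.0299, where 5.28% were higher).

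CLNK in PBMC had a lowest value of 132, a median of 209.4 and a highest value of 378 in OA, against 40.5, 117 and 199.9 in healthy horses. All 6 OA horses were above the healthy median and 3 were above every healthy horse. The log2 change was 0.99 (SE 0.32, 95% interval 0.31 to 1.67, adjusted p = 0.0753), the opposite sign to fluid, and it was 1.13 (adjusted p = 0.0465) without horse OA_1038. XCR1 had 23.5, 308 and 607 in OA against 59.6, 161 and 236 in healthy PBMC. Above the healthy median were 5 OA horses, 3 of them above every healthy horse, and horse OA_1038 was below every healthy horse. The log2 change of XCR1 was 0.84 (SE 0.58, adjusted p = 0.372) with all horses and 1.47 (adjusted p = 0.0341) without horse OA_1038.

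CLEC9A in PBMC had 21.6, 171 and 366 (lowest, median and highest) in OA against 42.4, 95.1 and 191 in healthy horses, with a log2 change of 0.47 (SE 0.52, adjusted p = 0.584). Every PBMC library had reads of it, unlike fluid. BATF3 had 123, 467 and 698 against 162, 356 and 601 (log2 change 0.18, SE 0.35, adjusted p = 0.773). IRF8 had 6615, 13282 and 16596 against 8414, 12261 and 15029.9 (log2 change 0.06, SE 0.19, adjusted p = 0.862). For each of these 3 genes the lowest of all 15 PBMC values was that of horse OA_1038, and the highest was that of another OA horse. Without horse OA_1038 the changes were 0.98 for CLEC9A (adjusted p = 0.135), 0.50 for BATF3 (adjusted p = 0.277) and 0.23 for IRF8 (adjusted p = 0.329).

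FLT3 had the same layout in PBMC. Its lowest, median and highest values were 346, 1829.97 and 3415 in OA and 545, 817 and 1233 in healthy PBMC. Again 4 of 6 OA horses were above every healthy horse, and horse OA_1038 was below every one. The log2 change was 0.95 (SE 0.37, 95% interval 0.17 to 1.72, adjusted p = 0.125) with all horses and 1.37 (adjusted p = 0.00903) without horse OA_1038. ZBTB46 had 250.0, 306 and 365 against 285, 324 and 438, with no OA horse above the healthy maximum and a log2 change of -0.14 (SE 0.13, adjusted p = 0.499). The general pair thus had opposite signs.

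LAMP3 in PBMC had 891, 2087 and 2992 in OA against 1270.0, 1932 and 2395 in healthy horses, and CD83 had 588, 1042 and 1388 against 544, 1067 and 1442. For LAMP3, 3 OA horses were above every healthy horse and horse OA_1038 was below every one, and for CD83 all 6 OA horses were inside the healthy range. The log2 changes were -0.01 (SE 0.23, 95% interval -0.48 to 0.47) for LAMP3 and -0.05 (SE 0.22, 95% interval -0.50 to 0.41) for CD83. Both genes missed the threshold widely (adjusted p = 0.986 and 0.905), and both signs turned when single horses were left out.

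**Figure D2:**
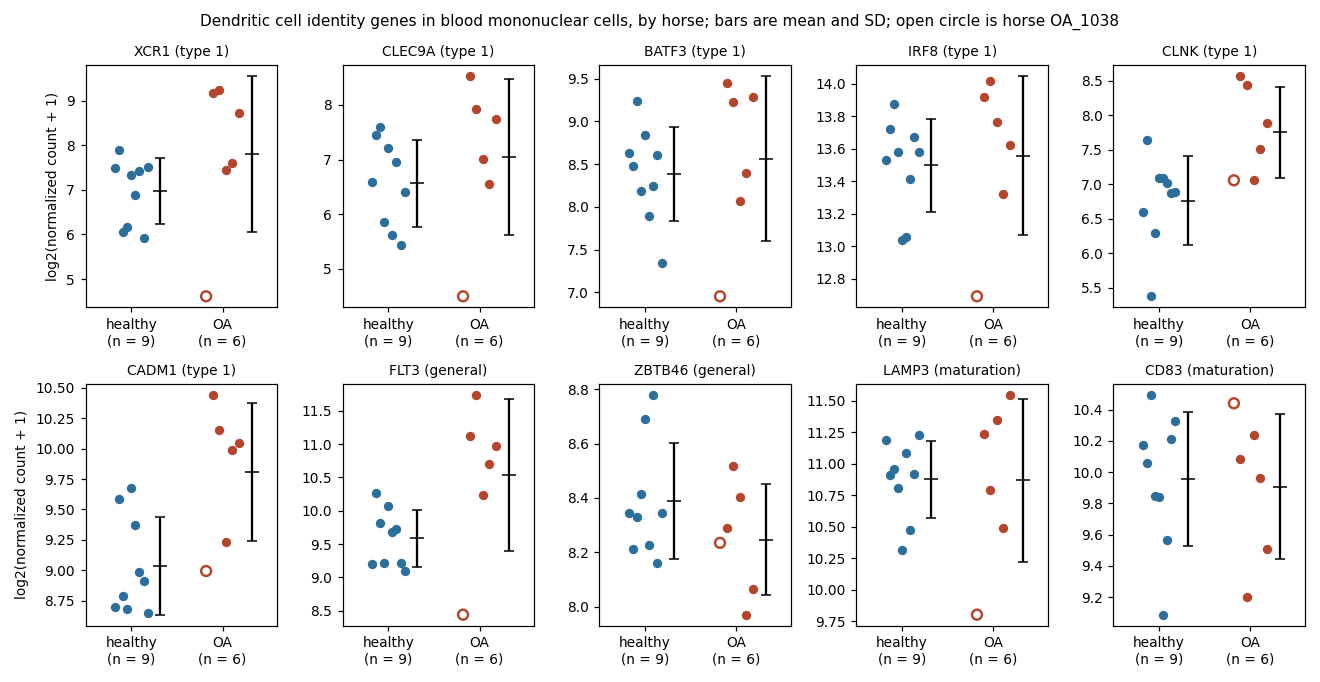
Normalized counts of the 10 genes in blood mononuclear cells on a log2(value + 1) axis, 1 point per horse, with the mean and SD of each group and horse OA_1038 as an open circle. In the CADM1 and FLT3 panels 4 of 6 OA horses lie above all 9 healthy horses, and horse OA_1038 is the lowest OA point for 7 of the 10 genes.

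Which PBMC genes passed depended on the tool and on horse OA_1038. Without that horse FLT3, CADM1, XCR1 and CLNK were called, all higher in OA, where 5.28% of the genes tested were called higher. With edgeR on the recovered reads CADM1 (0.81, adjusted p = 0.0446) and FLT3 (1.18, adjusted p = 0.0445) were called, beside 3.86% of all genes called higher. DESeq2 called CLNK (1.01, adjusted p = 0.0173), CADM1 (0.81, adjusted p = 0.0106) and FLT3 (1.18, adjusted p = 0.00724), beside 7.15% called higher. Weights per library led to calls of CLNK (0.89, adjusted p = 0.0351), CADM1 (0.83, adjusted p = 0.0132) and FLT3 (1.19, adjusted p = 0.0175), beside 10.5% called higher. Neither ZBTB46 nor a maturation gene was called in PBMC in any of these fits. Of 7 tested monocyte and macrophage markers, 2 were also higher in OA PBMC, with summed levels over the 8 measured of 41103 to 122621 against 18486 to 42999, and edgeR called 4 and DESeq2 5 of the 7. Of 10 T cell markers none was called by limma, edgeR or DESeq2 (3, 0 and 2 at an unadjusted p under 0.05). No marker of these lists was at 0 in every PBMC library. Their part in the FLT3, CADM1, XCR1 and CLNK values was not tested.

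The OA change was then compared between fluid and PBMC directly, over the 12733 genes tested in both. CLNK was the 1 gene of the 10 whose change differed, where 22.3% of all genes differed and 11.9% were lower in fluid than in PBMC. Its OA change was 3.28 log2 units lower in fluid (difference -3.28, SE 0.76, 95% interval -4.83 to -1.74, adjusted p = 0.00368). The call held in each of the 31 fits that left out 1 library (-4.01 to -2.40), and in the fit on within-horse differences (-3.52, adjusted p = 0.0190, where 13.1% of all genes were lower). XCR1 differed by -2.66 (SE 1.04, 95% interval -4.79 to -0.53, adjusted p = 0.0634) and passed without horse OA_1038 in both tissues (-3.92, adjusted p = 0.00299, where 10.2% of all genes were lower). It also passed without that horse in fluid alone (-3.28, adjusted p = 0.0315) and in PBMC alone (-3.30, adjusted p = 0.00742), where 10.9% and 11.2% of all genes were lower. The same held without the fluid of healthy horse ORC_205 (-2.87, adjusted p = 0.0453, with 12.4% lower) and with equal totals (-2.87, adjusted p = 0.0442, with 17.7% lower).

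For the other 8 genes the difference missed the threshold. CLEC9A had an estimate as low as that of XCR1 but an error too wide for a call (-2.72, SE 1.49, adjusted p = 0.188, and -4.09, adjusted p = 0.0560, without horse OA_1038 in both tissues). FLT3 differed by -0.71 (95% interval -2.20 to 0.78), IRF8 by -0.38 (-1.17 to 0.41), CADM1 by -0.36 (-1.34 to 0.63) and BATF3 by 0.33 (-0.95 to 1.61). LAMP3 differed by -0.38 (-1.58 to 0.82) and CD83 by 0.45 (-0.61 to 1.51). ZBTB46 had the smallest estimate, -0.02 (-0.67 to 0.63).

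**Figure D3:**
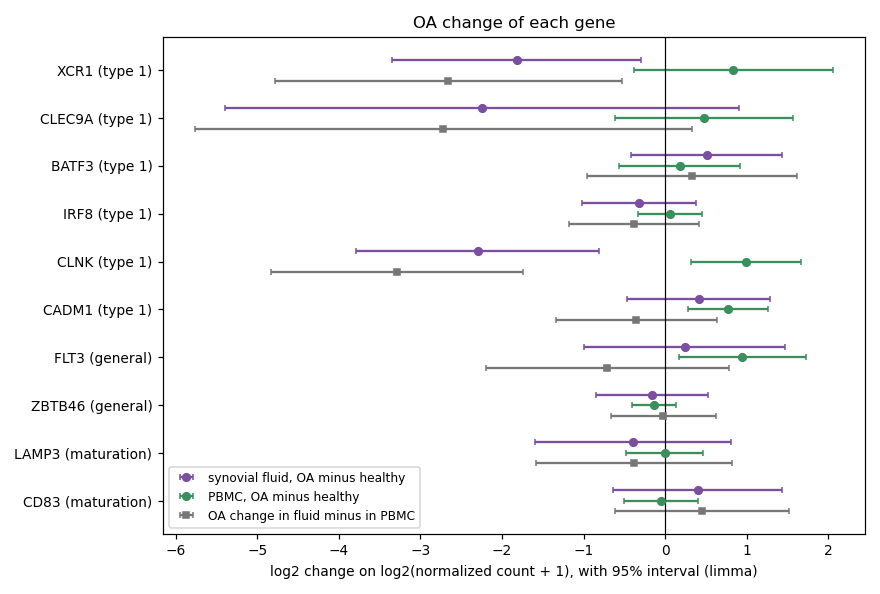
OA minus healthy change of each gene on the log2(value + 1) scale in fluid and in PBMC, and the fluid change minus the PBMC change, each with its 95% interval from limma. The intervals of CLNK lie on opposite sides of 0 in fluid (-3.78 to -0.81) and PBMC (0.31 to 1.67), and those of LAMP3 and CD83 include 0 throughout.

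Among the 5 OA horses with both samples, fluid and PBMC could be set side by side within a horse. XCR1 was below the healthy mean in fluid and above it in PBMC in 4 of 5 horses, and the opposite way in horse OA_1038 (0.67 in fluid and -2.35 in PBMC, in log2 units from the healthy mean). Horse OA_2615 had the widest split for XCR1, with -4.00 in fluid and 2.21 in PBMC. CLNK was below in fluid and above in PBMC in the same number of horses, 4 of 5, and above in both in horse OA_1038. For FLT3, 3 of 5 horses were above the healthy mean in both, whereas LAMP3 had 1 or 2 horses in each of the 4 combinations.

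**Figure D4:**
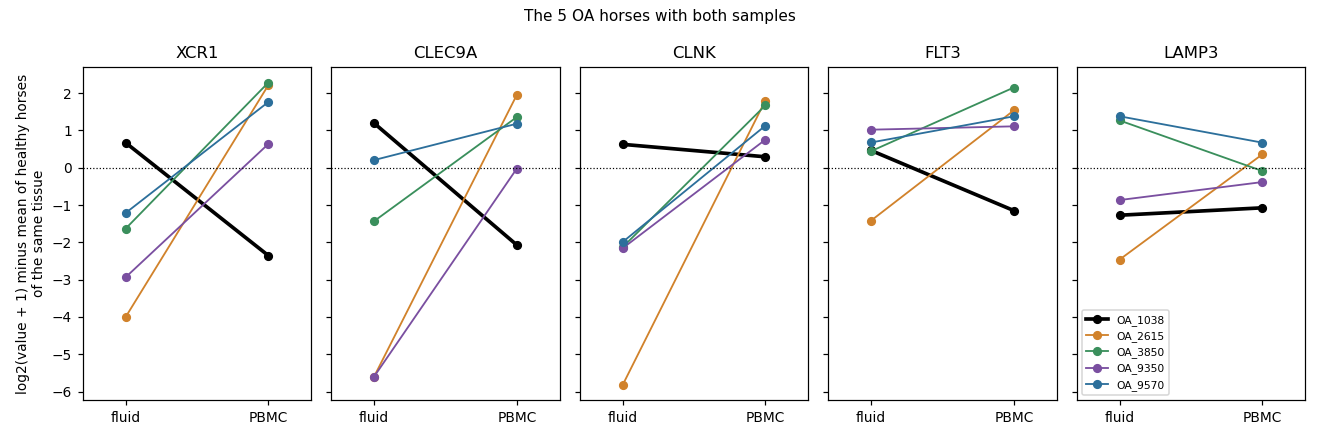
Deviation of each of the 5 OA horses with both samples from the healthy mean of the same tissue, in log2(value + 1), for 5 of the genes. Lines for XCR1 climb from fluid to PBMC in 4 horses and fall in horse OA_1038 (0.67 to -2.35).

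Type 1 and maturation genes were set against each other per library, as the mean log2(value + 1) of the 6 type 1 genes minus that of LAMP3 and CD83. No test was made on this balance, because its genes were chosen with results known. In fluid it was -2.96, -2.82, -2.69, -1.70 and 0.11 in OA horses, against -2.48 to -0.01 (median -0.77) in healthy horses. Below every healthy horse lay 3 OA horses, whereas horse OA_1038 lay above every one. The group means differed by -0.96 (-2.01 ± 1.29, SD, n = 5, against -1.05 ± 0.78, SD, n = 11), with -0.96 on the type 1 side and 0.004 on the maturation side; without horse OA_1038 the difference was -1.50. Of the type 1 genes in fluid, CLNK (-2.30), CLEC9A (-2.25), XCR1 (-1.82) and IRF8 (-0.32) had negative log2 changes. BATF3 (0.51) and CADM1 (0.41) had positive ones. CLEC9A had no read in OA_2615 and OA_9350, both below every healthy horse in this balance, nor in healthy horses ORC_197 and ORC_205. In PBMC the balance was -2.65 to -0.16 (median -1.15) in OA and -2.38 to -1.21 (median -2.09) in healthy horses. The difference was 0.58 with all horses, of which 0.55 was the type 1 side and -0.03 the maturation side, and 0.85 without horse OA_1038.

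**Figure D5:**
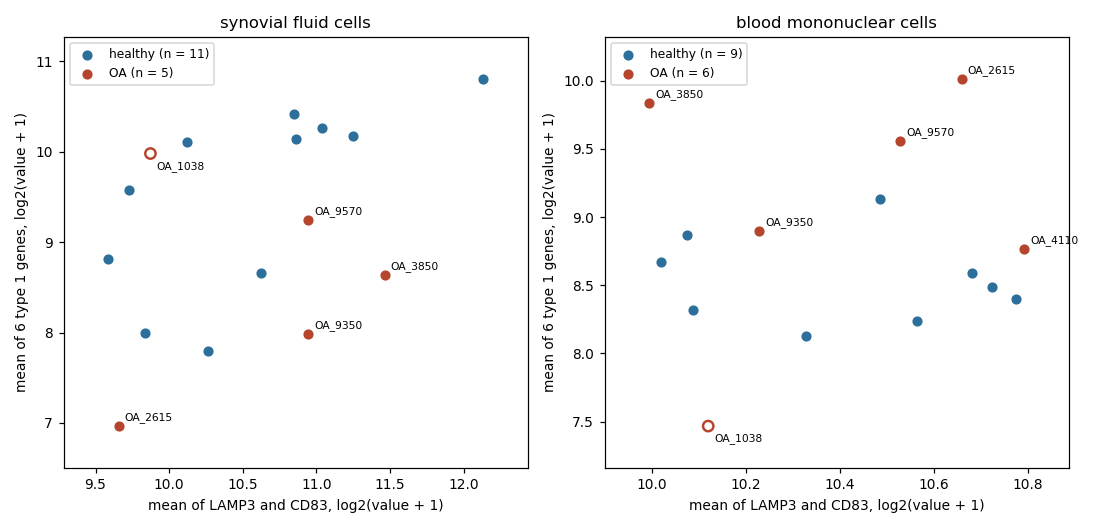
Mean log2(value + 1) of the 6 type 1 genes (vertical axis) against that of LAMP3 and CD83 (horizontal axis), 1 point per library, with fluid on the left and PBMC on the right. In fluid OA horses OA_3850 and OA_9350 combine a type 1 mean of 8.64 and 7.98 with maturation means of 11.46 and 10.94, and horse OA_1038 lies among healthy horses with a type 1 mean of 9.98.

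Within healthy horses pairs of the genes varied together in fluid, and none passed in PBMC. Over the 11 healthy fluids, 7 of 15 pairs of type 1 genes, 4 of 12 pairs of a type 1 and a maturation gene, and 10 of 17 pairs with a general gene had a Pearson correlation with an adjusted p under 0.05 (permutation test, 45 pairs). By Spearman's rho 7 of the 45 pairs passed in place of 21, namely 4 of type 1 genes, 1 of a type 1 and a maturation gene, and 2 with a general gene. XCR1 and IRF8 correlated at r = 0.870 (adjusted p = 0.00660) and rho = 0.873 (adjusted p = 0.0107), with r = 0.774 without the 2 horses farthest from the median. XCR1 and CLEC9A gave r = 0.829 (adjusted p = 0.00660) and rho = 0.784 (adjusted p = 0.0390), with r = 0.786 without 2 horses.

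The highest correlation of all was between IRF8 and LAMP3, genes of different roles (permutation test, r = 0.889, adjusted p = 0.00660, rho = 0.918, adjusted p = 0.0107, and r = 0.926 without 2 horses). BATF3 and FLT3 gave r = 0.884 (adjusted p = 0.00660) and rho = 0.882 (adjusted p = 0.0107), with r = 0.874 without 2 horses. CADM1 and CD83 had no pair that passed, and LAMP3 and CD83 gave r = 0.230 (adjusted p = 0.640) and rho = 0.182 (adjusted p = 0.722). All genes of a fluid share its size factor, and these fluids differ in their cell makeup. The part of either was not tested. Over the 9 healthy PBMC samples 0 of 45 pairs passed in an exact permutation test, with 5 at an unadjusted p under 0.05 for Pearson correlation, and the median r of type 1 pairs was 0.22 against 0.63 in fluid.

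The genes most like XCR1 over the 11 healthy fluids, among 13880, were TLR12 (r = 0.963), ZNF366 (r = 0.951), a gene known by the identifier ENSECAG00000014985 (r = 0.946) and SEMA6D (r = 0.939). IRF8 was the gene of the 10 closest to XCR1, at rank 23, followed by CLEC9A at rank 43, CLNK at rank 49 and FLT3 at rank 53. For LAMP3 in fluid the closest were FDPS (r = 0.923), NAPSA (r = 0.917), CLEC5A (r = 0.915) and SLC24A3 (r = 0.910), and IRF8 came at rank 9. Over the 9 healthy PBMC samples other genes led. XCR1 was most like ENSECAG00000001016 (r = 0.944), GNAT2 (r = 0.931), FOXP1 (r = 0.923) and LEKR1 (r = 0.920), and LAMP3 most like ENSECAG00000038484 (r = 0.953), PRR36 (r = 0.950), ARSK (r = 0.944) and RHOQ (r = 0.941). LEKR1 and ENSECAG00000038484 had low means in healthy PBMC, 8.92 and 9.91 normalized counts. No test was made on these likenesses in either tissue. Picked as the highest among 13880 or 13072 genes over few horses, such r values can arise by chance.

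Other genes of the same pathways were read from wider lists. FLT3LG, the ligand of FLT3, was lower in OA fluid, at 1157 ± 425 (SD, n = 5) against 3484 ± 1256 (SD, n = 11) normalized counts, with a log2 change of -1.57 (SE 0.31, adjusted p = 0.00267). In PBMC its log2 change was -0.28 (adjusted p = 0.241), and the change differed between fluid and PBMC (-1.29, SE 0.34, adjusted p = 0.00870). The fluid and difference calls of FLT3LG held in every alternative run, and in PBMC it passed without horse OA_1038 (-0.41, adjusted p = 0.0481). The T cell and NK markers given above were lower in the same fluids, and their part in the FLT3LG change was not tested. Of 4 measured ligands, CSF2, a growth factor of myeloid cells, was the other that was lower in OA fluid (0.424 ± 0.947 against 21.5 ± 34.6, adjusted p = 0.0415), with 6 of 16 fluids at 0. CSF2 reached the minimum mean of 10 only through the healthy fluids, and no conclusion is drawn from its call. That call was lost with a pseudocount of 5 (adjusted p = 0.0688) and without any 1 of the 5 OA horses or without ORC_188, ORC_200, ORC_201, ORC_202, ORC_205, ORC_208 or ORC_209 (adjusted p of 0.0507 to 0.0869). XCL1, the ligand of XCR1, was not analysed here.

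Of 10 further genes tied to type 1 dendritic cells, 1 was higher and 1 lower in OA fluid, and none was called in PBMC by limma, edgeR or DESeq2 (3, 2 and 2 at an unadjusted p under 0.05). TAP1, which carries peptides to class I molecules, was lower in fluid (3350 ± 1474 against 12239 ± 3863, log2 change -1.90, adjusted p = 0.000567), and RAB7B, a protein of endosomal traffic, was higher (5289 ± 2058 against 2261 ± 1715, log2 change 1.49, adjusted p = 0.0296). The TAP1 call held in every alternative run, whereas that of RAB7B was lost with edgeR (1.15, adjusted p = 0.0639), with equal totals (1.28, adjusted p = 0.0505) and without OA horse OA_1038, OA_2615, OA_3850 or OA_9570 (adjusted p of 0.0562 to 0.0792). The development factors ID2 (-0.003, adjusted p = 0.994) and NFIL3 (0.74, adjusted p = 0.204) missed the threshold in fluid, though NFIL3 passed with DESeq2 (1.03, adjusted p = 0.0413), with weights (1.24, adjusted p = 0.00841) and without horse OA_2615 (1.17, adjusted p = 0.0477). The threshold was also missed by the double-stranded RNA sensor TLR3 (-0.43, adjusted p = 0.385) and WDFY4, which is needed for cross-presentation (0.32, adjusted p = 0.473). Over both lists of type 1 genes, limma called CLNK and TAP1 lower in fluid, beside 13.6% of all genes called lower. Of these 2, edgeR and DESeq2 called TAP1 alone. In the same fluids 9 of 10 T cell markers and 6 of 11 type I interferon response genes were lower by limma. Their part in the TAP1 change was not tested.

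Of 14 tested genes of the mature dendritic cell programme, 4 were lower and 1 higher in OA fluid. Over all genes tested, 28.1% passed in either direction and 13.6% were lower. The lower genes were BIRC3, an inhibitor of cell death (-1.10, adjusted p = 0.00231), CD274, the ligand PD-L1 (-1.52, adjusted p = 0.00326), MARCKSL1, a cytoskeletal protein (-1.29, adjusted p = 0.0129), and CCL22, a chemokine for regulatory T cells (-2.86, adjusted p = 0.0204). CCL22 was low, at 10.9 ± 11.4 (SD, n = 5) in OA and 56.1 ± 57.2 (SD, n = 11) in healthy fluid. It was at 0 in 2 fluids. The higher gene, named after its value was seen, was the costimulatory molecule CD86 (1.46, adjusted p = 0.0218). T cell and NK markers and 2 of 8 monocyte and macrophage markers also differed between these fluids. Their part in these changes was not tested. The calls of BIRC3, CD274 and MARCKSL1 held in every alternative run. That of CCL22 was lost with edgeR (adjusted p = 0.0886), with weights (adjusted p = 0.0592) and without OA_2615 (adjusted p = 0.0746) or OA_9350 (adjusted p = 0.0691), and that of CD86 without OA_2615 (adjusted p = 0.0594), OA_3850 (adjusted p = 0.0551) or OA_9350 (adjusted p = 0.0721). CCR7, which takes mature dendritic cells and naive T cells to lymph nodes, had a change of -1.92 in fluid (adjusted p = 0.101) and was lower in OA PBMC, at 3975 ± 1418 (SD, n = 6) against 8359 ± 1904 (SD, n = 9), with a log2 change of -1.15 (SE 0.23, adjusted p = 0.0196). The fluid change of CCR7 passed without OA_3850 (-2.67, adjusted p = 0.0329), and was -1.01 (adjusted p = 0.350) without OA_2615 and -0.57 (adjusted p = 0.586) with weights per library. The PBMC call was lost without OA_3850 (adjusted p = 0.0571) or OA_9570 (adjusted p = 0.0602). RELB (-0.30, adjusted p = 0.439) and FSCN1 (-0.46, adjusted p = 0.221) missed the threshold in fluid, and IL12B was under the minimum mean of 10 in both tables.

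The other dendritic subsets were tested by fewer genes. Over all genes tested, limma called 28.1% in either direction and 13.6% lower in fluid, and 5.4% in either direction in PBMC. Of 5 measured genes of type 2 dendritic cells, IRF4 was lower in OA fluid (821 ± 72.4 against 1709 ± 528, log2 change -1.01, adjusted p = 0.00171). That call held in every alternative run. CD1C (0.84), FCER1A (0.94), KLF4 (1.09) and NOTCH2 (0.36) had positive changes in fluid and were not called by limma, edgeR or DESeq2. Their PBMC changes were 0.28, -0.19, 0.76 and 0.52, again with no call by these tools. The part of the lower T cell markers in the IRF4 change was not tested. In PBMC IRF4 had a change of -0.68 (adjusted p = 0.0659) with limma, and passed with edgeR (-0.76, adjusted p = 0.0487), with DESeq2 (-0.76, adjusted p = 0.00990), with weights (-0.68, adjusted p = 0.00937) and without healthy horse ORC_202 (-0.78, adjusted p = 0.0236) or ORC_209 (-0.76, adjusted p = 0.0479). Of 6 genes of plasmacytoid dendritic cells, IRF7 was lower in fluid (-2.11, adjusted p = 0.0138), and RUNX2 was higher in PBMC (0.84, adjusted p = 0.0283). TLR7, TLR9 and BLNK changed by 0.52, -0.31 and 0.04 in fluid and by 0.48, -0.08 and -0.43 in PBMC. RUNX2 changed by -0.59 in fluid and IRF7 by -0.46 in PBMC. None of these was called by limma, edgeR or DESeq2. The IRF7 call held in every alternative run, and that of RUNX2 was lost without OA_3850, OA_9350 or OA_9570 (adjusted p of 0.0858 to 0.0864) or ORC_207 (adjusted p = 0.0503). TCF4, the factor that defines plasmacytoid cells, had a change of 1.15 in fluid (adjusted p = 0.192, and 1.31, adjusted p = 0.0425, with weights) and -0.20 in PBMC (adjusted p = 0.681). IRF7 is also an interferon-induced gene, and 6 of 11 type I interferon response genes were lower in OA fluid, beside 13.6% of all genes tested. The part of the interferon response in the IRF7 change was not tested.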

How the data were processed

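RNA-seq values of 16 fluid and 15 PBMC libraries were used. Per the file headers and labels, the deposited signal of a gene is its count after median-ratio normalization by the authors, done in each tissue on its own. The submitters' processing notes list Partek, cutadapt, STAR 2.7.3, HTSeq, DESeq and the build EquCab3.0, without settings. Low values were whole multiples of 1 read (99.87% to 99.98% whole within 0.1), which gave reads and depth. No library was a near copy of another of its group (chi-square per gene of at least 35.9). Coordinates come from the PBMC table; no other protein-coding gene in it overlaps the 10.

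In each tissue limma 3.58.1 (trend, robust, two-sided, Benjamini-Hochberg at 0.05) was run on log2(value + 1), keeping a gene where its mean reached 10; this scale understates changes of low genes. On the recovered reads edgeR 4.0.16 and DESeq2 1.42.0 were alternatives. Because of the separate normalization, changes and not levels were compared between tissues, with 4 group means and weights per tissue. Horse numbers in the titles pair fluid and PBMC, and a fit on within-horse differences served as replicate block. Deviations of same-numbered libraries correlated at 0.123 to 0.391 (13 of 13 over 0.1). Different-numbered libraries were not correlated, so these values do not test the pairing. The genes and lists were chosen with earlier results of these data known. Named were the 10 genes, up to 4 called genes of smallest p per dendritic list and tissue, a fixed set of regulators, and the 4 genes most like XCR1 and LAMP3. The code was tested on simulated data.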

Additional observations from a re-analysis of the deposited data

Results flagged for a closer look

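FLT3 in the fluid of OA horse OA_2615 lay far from the other OA fluids. It had 711 normalized counts, against 2587 to 3852 in the other 4. On the log2(value + 1) scale its 9.48 was separated from the next value, 11.34, by 0.764 of the range of the group, whose highest value was 11.91. Among 33 groups of values examined in this way, such a gap can arise by chance.

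The OA change of CLNK differed between fluid and PBMC by -3.28 on the log2 scale (adjusted p = 0.00368, limma), and was negative in fluid and positive in PBMC in 4 of 5 OA horses with both samples.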

How the results depend on the processing

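Every limma call of the 10 genes was the same with a pseudocount of 0.5 or 5, without a filter and with a minimum mean of 50. The replicate block changed no call of the 10 (3077 genes called in the difference against 2834). Scaling to equal totals moved the split in fluid to 1302 higher and 2767 lower, from 2006 and 1893, and in the difference to 797 and 2255, from 1315 and 1519, with the median of all genes in the difference at -0.26 in place of -0.05. Weights per library raised the calls to 6635 from 3899 in fluid and to 2312 from 706 in PBMC, and DESeq2 called 1685 in PBMC. Leaving out 1 library gave 2506 to 4651 calls in fluid, the lowest without OA_2615, and 31 to 1209 in PBMC. In PBMC the count was 31 without OA_9570, 33 without OA_3850, 35 without OA_9350, 224 without ORC_207, 260 without ORC_208, 300 without ORC_200, 1147 without OA_1038 and 1209 without ORC_202; in the difference it was 1972 to 3370. The cause was not tested.

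Signs turned for changes that were not called. In fluid LAMP3 was at 0.26 with weights, 0.021 with edgeR and 0.0795 with DESeq2, and FLT3 at -0.11 with edgeR and -0.047 with DESeq2, ID2 at 0.0211 with weights, 0.0266 with DESeq2 and 0.0997 without OA_9570 and ORC_202 together, and FSCN1 at 0.0312 with weights. In PBMC LAMP3 was at 0.00782 with equal totals, 0.0608 with weights, 0.0754 with edgeR and 0.0746 with DESeq2. The ZBTB46 difference was 0.0332 in the replicate block and 0.0273 without OA_9570 and ORC_202 together. With 1 library left out, LAMP3 ran from -0.83 to 0.13 in fluid, -0.14 to 0.21 in PBMC and -0.83 to 0.13 in the difference. IRF8 ran from -0.0328 to 0.23 and CD83 from -0.16 to 0.0912 in PBMC, and the ZBTB46 difference from -0.14 to 0.0921, and ID2 in fluid from -0.26 to 0.19. The type 1 against maturation balance stayed between -1.50 and -0.73 in fluid and between 0.35 and 0.85 in PBMC.

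Precision is set by the number of horses: with 5 OA fluids and a few horses far from the rest, the 95% intervals of the fluid changes are wide. CLEC9A was at 0 reads in 4 fluids, so its size of change depends on the pseudocount (-2.47 with 0.5 and -1.71 with 5). Motifs in promoters were planned but not run.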

Other observations

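Levels in the fluid and PBMC of the same healthy horse were set side by side for each of the 10 genes (8 horses, 10 relations, exact permutation tests). No gene had an adjusted p under 0.05 by Pearson or Spearman correlation. LAMP3 had the largest value, r = -0.539 (p = 0.165, adjusted p = 0.997) and rho = -0.738 (p = 0.0458, adjusted p = 0.458), with r = -0.776 without the 2 horses farthest from the median. CADM1 followed, with r = 0.414 (p = 0.294, adjusted p = 0.997), rho = 0.595 (p = 0.132, adjusted p = 0.661) and r = 0.114 without 2 horses.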
